A study of Planococcus citri with 8 samples.

Results

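The cytochrome P450 family of the citrus mealybug *Planococcus citri* was described from RNA-seq counts of virgin and mated females. Members were all gene models that carry the InterPro entry for cytochrome P450 in the annotated gene table, which gave 139 of the 17669 gene models of that table, 11584 of which have an InterPro entry. The count table holds 40620 gene models. Every gene model of the annotated table had more than 1 CPM (counts scaled to a library total of 1000000) in at least 3 libraries, so all 139 members were expressed by the way that table was made, and P450 gene models below this level are not covered. A member could pass on the level of either group alone.

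Cytochromes P450 are haem enzymes that insert an oxygen atom into a substrate with electrons passed on from NADPH. Microsomal forms take these electrons from cytochrome P450 reductase and in part from cytochrome b5, and mitochondrial forms from ferredoxin reductase and a ferredoxin. In insects the family is known for the oxidation of plant compounds and insecticides in gut, fat body and Malpighian tubules, for steps of ecdysteroid and juvenile hormone synthesis, and for the metabolism of odorants, pheromones and cuticular hydrocarbons. The tables give neither a P450 subfamily nor a substrate for any member, so members are named by gene model only.

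The 8 libraries, 4 per group, were each made from approximately 150 pooled whole insects (approximately 100 mg). Their labels number the virgin pools as replicates 2, 3, 5 and 6 and the mated pools as replicates 8, 9, 10 and 11. All females came from 1 laboratory colony reared on lemons. Virgin females were taken from separated lemons from which male cocoons were removed, and mated females from the main colony once egg sacs were present. The groups thus differed in mating, in egg laying and in how they were kept, which cannot be told apart, and the age of the females is not given. The comparison of virgin with mated females was made by the study to find genes tied to the production of sex pheromone, which virgin females release.

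Libraries held 29667566 to 50301861 counted read pairs, so that 1 count was worth 0.0199 to 0.0337 CPM. Levels below are CPM scaled by the trimmed mean of M values (TMM), and they are shares of reads, not corrected for gene length, which the tables do not give. Whole insects hold many cell types. By the test described below, 26.4% of all gene models tested were higher in virgin females and 21.3% lower. Of the marker lists, 13 of 17 muscle genes were higher in virgin females, with summed levels of 4610 to 11200 CPM against 1900 to 3700 CPM, and 6 of 8 DNA replication genes were lower, with 377 to 578 against 820 to 1070 CPM. Yolk and lipid transport genes were lower for 3 of 6 (898 to 1120 against 1420 to 1700 CPM). Most of this sum came from g31300 (644 to 810 against 969 to 1210 CPM). It and g33455, also lower, are listed by a von Willebrand factor type D entry. By the lipid transport entry g36282 was lower, while g33568, g5401 and g20472 were not called (log2 fold changes -0.09, 0.38 and -0.21). Digestive peptidases were higher for 40 and lower for 22 of 121 (6750 to 10100 against 6740 to 7910 CPM), and germline small RNA genes were higher for 1 and lower for 2 of 11 (4190 to 5230 against 3580 to 4170 CPM). No gene of these lists had 3 counts or fewer over all libraries, and 0 genes matched the list for sperm tails. The part of tissue makeup in the P450 values was not tested, and fewer cells of a type and less RNA per cell cannot be told apart in such pools. In virgin replicate 2 the muscle genes stood at 4610 CPM, against 10400 to 11200 CPM in the other virgin libraries.

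As a whole, the P450 family took a larger share of reads in virgin than in mated females. The 139 members together had 5440, 4615, 5380 and 5708 CPM, here without TMM scaling, in virgin replicates 2, 3, 5 and 6, and 3929, 3741, 3066 and 3151 in mated replicates 8, 9, 10 and 11. All virgin libraries lay above all mated libraries. Group means were 5286 ± 469 and 3472 ± 428 CPM (SD, n = 4 each), a ratio of 1.52. A pair of members, g22154 and g30706, took 13% to 41.4% of the family's reads in virgin and 41.5% to 49.1% in mated libraries. Without this pair the other 137 members summed to 3880 ± 702 against 1888 ± 354 CPM, a ratio of 2.06. These sums are descriptions and carry no test.

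**Figure D1:**
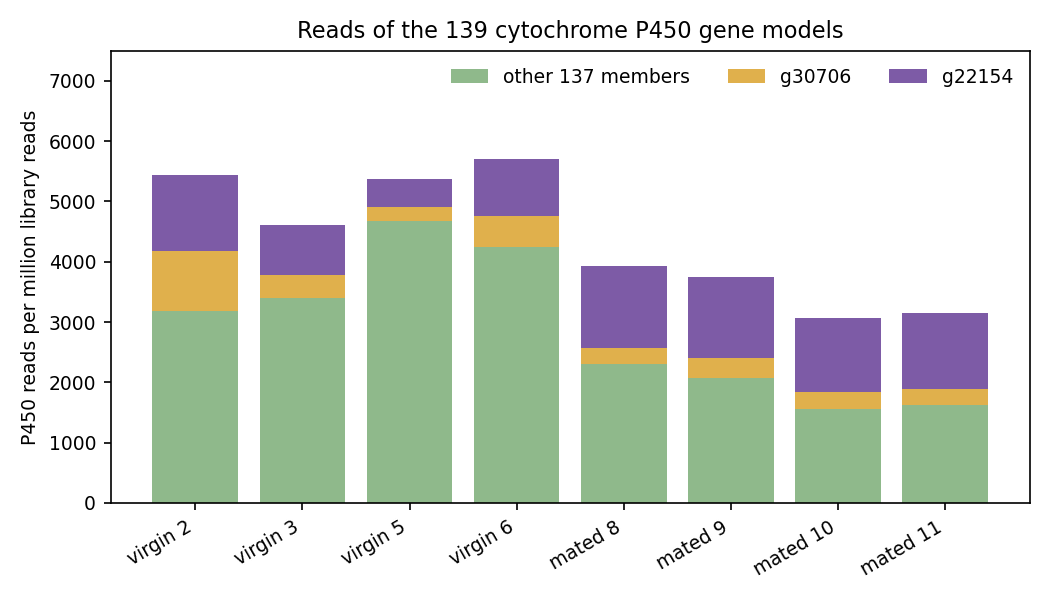
Reads per 1000000 library reads (y axis) of the 139 P450 gene models in each of the 8 libraries (x axis), split into g22154, g30706 and the other 137 members. The whole bars run from 4615 to 5708 in virgin and from 3066 to 3929 in mated libraries, and the part of the other 137 members is larger in every virgin library.

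Of the 139 members, 69 were higher and 6 lower in virgin females at an adjusted p under 0.05, and 64 were not called. Calls came from edgeR's quasi-likelihood test over the 21179 gene models that passed its filter on low counts, with Benjamini-Hochberg adjustment over all of them. The higher calls made up 49.6% of the members against 26.4% of all gene models tested, and the lower calls 4.32% against 21.3%. The median log2 fold change of virgin over mated females was 1.21 for the members and 0.03 for all gene models tested, and it was above 0 for 119 of 139 members (85.6%, against 51.5% of all) and above 1 for 78. Levels did not overlap between the groups for 53 members with all virgin libraries above (38.1%, against 22.1% of all) and for 8 with all virgin libraries below (5.76%, against 21.1%).

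**Figure D2:**
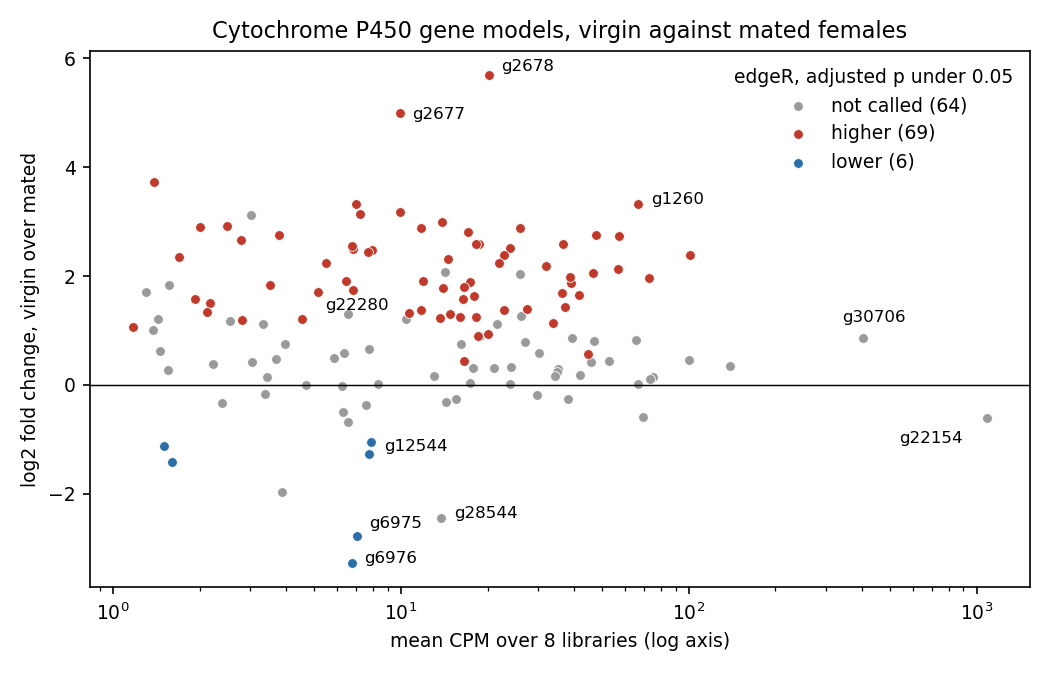
Log2 fold change of virgin over mated females (y axis) against mean CPM over the 8 libraries on a log axis (x axis) for each of the 139 members, coloured by edgeR call. Most points lie above 0, the 69 higher calls are spread from about 1 to over 100 CPM, and the 6 lower calls all lie under 10 CPM.

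The call depended on which libraries entered. Without virgin replicate 2, 83 members were higher (59.7%, against 31.4% of all) and 9 lower (6.47%, against 30.6%). Leaving out another library gave 50 to 69 higher calls, the fewest without mated replicate 11 (36.0% of the members, against 19.5% of all). Without virgin replicate 6 or mated replicate 8, 10 or 11 there were 3 lower calls (2.16%), against 15.8% to 18.7% of all. Over 17 fits, the one described and 16 alternatives, 45 members (32.4%) were higher in every fit and 2 (1.44%) lower, against 19.2% and 15.4% of the 18507 gene models tested in every fit. No fit called 31 members (22.3%), against 27.4% of those gene models. The log2 fold change kept a positive sign in every fit for 110 members and a negative sign for 16.

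Calls are given here by level, where 26.4% of all gene models tested, at any level, were higher and 21.3% lower. Of 58 members with a mean of 1 to 10 CPM, 25 were higher and all 6 lower calls fell among them. Of 77 members with 10 to 100 CPM, 43 were higher and 0 lower. Only 4 members exceeded 100 CPM, of which 1 was higher, and these are too few to compare with the other levels.

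The members with the smallest p among the higher calls were g22280, g5874, g22282 and g22291. The level of g22280 was 8.76, 9.59, 9.44 and 12.8 CPM in virgin replicates 2, 3, 5 and 6 and 2.83, 2.41, 2.44 and 3.10 CPM in mated replicates 8, 9, 10 and 11. Values of further members are given in this order of libraries. No virgin library came near the mated range, and the spread within either group was small. On the log2 scale the difference was 1.91 (SE 0.19, edgeR adjusted p = 0.000904), and means were 10.2 ± 1.81 and 2.69 ± 0.33 CPM (SD, n = 4 each). A higher level but a smaller fold was found for g5874, with 52.6, 45.2, 62.7 and 57.1 CPM in virgin and 19.9, 21.2, 22.8 and 16.3 CPM in mated libraries. Here too the groups were well apart, by 1.44 on the log2 scale (SE 0.14, edgeR adjusted p = 0.000909). For g22282 the levels were 8.34, 11.4, 13.6 and 13 against 2.32, 2.24, 1.27 and 2.40 CPM, a log2 fold change of 2.49 (SE 0.26, edgeR adjusted p = 0.00105). For g22291 they were 12, 26.1, 28.8 and 32.2 against 3.71, 4.26, 2.08 and 2.32 CPM, with virgin replicate 2 the lowest virgin library, and the log2 fold change was 3.0 (SE 0.37, edgeR adjusted p = 0.00133). All 4 were higher in all 17 fits.

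**Figure D3:**
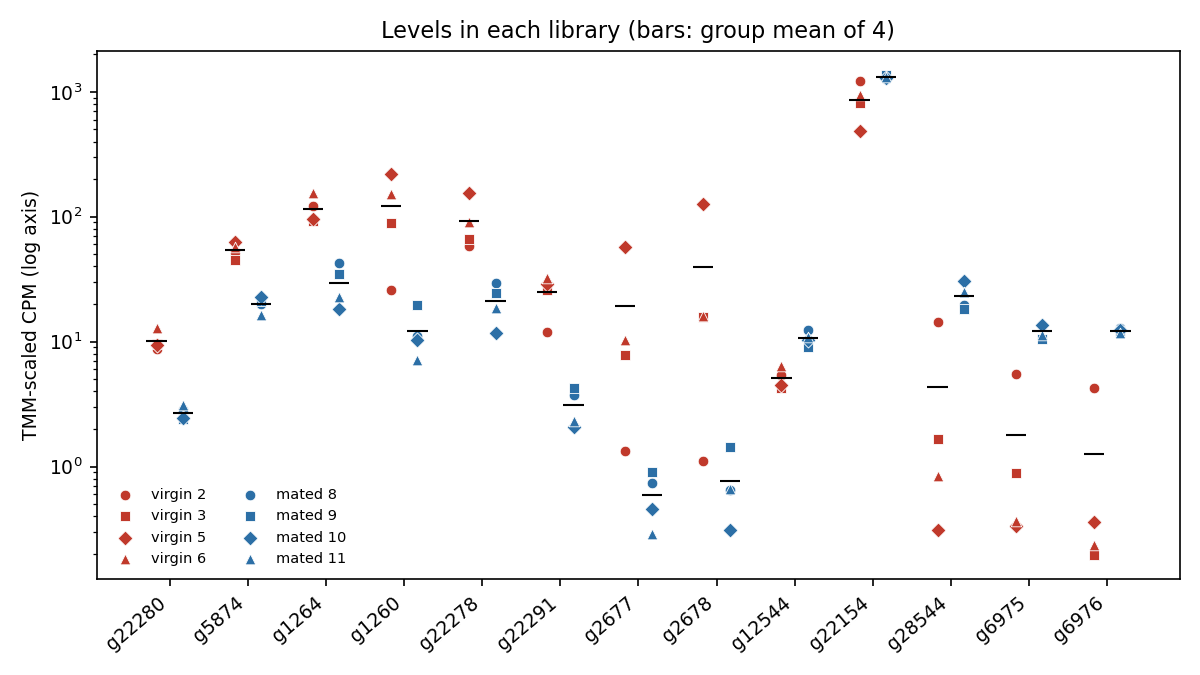
TMM-scaled CPM on a log axis (y axis) of 13 members (x axis) in each virgin (red) and mated (blue) library, with marker shapes for the replicates and bars at group means of 4 libraries. The groups are well apart for g22280 and g5874, while virgin replicate 5 lies far above the other virgin libraries for g2677 and g2678 and virgin replicate 2 far above them for g6975, g6976 and g28544.

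Of the 10 members with most reads, 3 were called, all of them higher. Among all gene models tested 26.4% were higher and 21.3% lower, and so few members cannot be set apart from these shares. The member with most reads, g22154, had 1210, 817, 483 and 938 CPM in virgin and 1270, 1370, 1290 and 1310 CPM in mated libraries. All virgin libraries were below all mated libraries, which were close to each other, and virgin replicate 2 was nearest to them. Its log2 fold change of -0.60 (SE 0.25) did not pass the test (edgeR adjusted p = 0.0733). Leaving out virgin replicate 2 made it -0.82 and it passed (adjusted p = 0.0109, with 0.0031 to 0.151 over the alternatives). With all libraries g22154 passed in limma voom (adjusted p = 0.0478), in DESeq2 (adjusted p = 0.0355) and in edgeR with upper-quartile scaling (adjusted p = 0.0462). The next, g30706, had 963, 357, 245 and 514 CPM in virgin and 262, 335, 283 and 269 CPM in mated libraries. Its groups overlapped, since virgin replicate 5 was below every mated library while virgin replicate 2 was far above them. Its log2 fold change of 0.86 (SE 0.38) did not pass (edgeR adjusted p = 0.0917), and without virgin replicate 5 it was 1.07 and did (adjusted p = 0.0273, with 0.0273 to 0.203 over the alternatives).

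Of the other 8 members among the 10 with most reads, g1261, g1264 and g1260 were higher in virgin females, and all 3 belong to 1 array described below. The 5 others, g22302, g1418, g6863, g22267 and g20891, were not called, with log2 fold changes of 0.34, 0.47, 0.14, 0.11 and -0.59. The steadiest of them was g22267, at 70.6, 70.5, 84.8 and 77.5 CPM in virgin and 71.1, 70.3, 74.0 and 66.3 CPM in mated libraries. By contrast g20891 ran from 14.4 CPM in virgin replicate 2 to 125 CPM in virgin replicate 6, on both sides of the mated libraries at 58.2 to 103 CPM. Without virgin replicate 6 its log2 fold change was -1.36 (edgeR adjusted p = 0.0303, with 0.0303 to 0.601 over the alternatives). Without virgin replicate 2, g22302 passed with a log2 fold change of 0.56 (edgeR adjusted p = 0.0444, with 0.0444 to 0.932 over the alternatives).

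The largest fold change among members whose groups did not overlap belonged to g2677, with 1.32, 7.76, 57.6 and 10.3 CPM in virgin and 0.736, 0.902, 0.458 and 0.290 CPM in mated libraries. Virgin replicate 5 was far above the other virgin libraries. The log2 fold change was 5.0 (SE 1.11, edgeR adjusted p = 0.0076) and fell to 3.42 without virgin replicate 5 (adjusted p = 0.00976). With limma voom the adjusted p was 0.0579, and over the alternatives it ran from 1.84e-07 to 0.0579. Its neighbour g2678 had the same shape, at 1.10, 15.7, 126 and 16.0 against 0.651, 1.44, 0.312 and 0.666 CPM. Virgin replicate 2 lay within the mated range there, so the groups overlapped. Its log2 fold change was 5.69 (SE 1.34, edgeR adjusted p = 0.00976), or 3.83 without virgin replicate 5 (adjusted p = 0.0148, with 1.53e-07 to 0.103 over the alternatives, the highest with limma voom).

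Further members with large folds had no overlap either. For g34107 the levels were 2.75, 14.6, 22.4 and 11.1 against 1.5, 1.75, 0.999 and 0.811 CPM (log2 fold change 3.32, SE 0.60, edgeR adjusted p = 0.00346). For g5873 they were 18.3, 26.3, 48.9 and 25.8 against 5.12, 5.29, 2.29 and 4.32 CPM (log2 fold change 2.81, SE 0.38, edgeR adjusted p = 0.00156). In both, virgin replicate 2 was the lowest virgin library. For g19438 they were 16.8, 34.6, 91.0 and 40.5 against 3.4, 14.9, 1.52 and 5.07 CPM, with a log2 fold change of 2.88 (SE 0.76, edgeR adjusted p = 0.0155) that was 2.29 once virgin replicate 5 was left out and 3.77 once mated replicate 9, the mated library closest to the virgin ones, was left out. These 3 were higher in all 17 fits.

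Only 6 members were lower in virgin females, and all had means below 10 CPM over the libraries. The steadiest was g12544, with 5.37, 4.22, 4.49 and 6.44 CPM in virgin and 12.3, 9.04, 10.3 and 10.8 CPM in mated libraries. Its groups were apart with a narrow spread in each, and the log2 fold change was -1.05 (SE 0.19, edgeR adjusted p = 0.00338). The other member that was lower in all 17 fits was g20849, at 0.787, 0.884, 1.08 and 1.02 against 2.46, 2.22, 1.71 and 1.88 CPM (log2 fold change -1.13, SE 0.22, edgeR adjusted p = 0.00478).

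The largest falls belonged to g6976 and g6975, neighbours on scaffold PCITRI_01975. For g6976 the levels were 4.27, 0.196, 0.361 and 0.235 CPM in virgin and 12.8, 12.2, 12.3 and 11.7 CPM in mated libraries. It stood at a near constant level in all mated pools and at 0.361 CPM or less in 3 virgin pools, with virgin replicate 2 between. The log2 fold change was -3.27 (SE 0.97, edgeR adjusted p = 0.0235), and it was -5.51 without virgin replicate 2 (adjusted p = 2.75e-05). The call was lost without virgin replicate 5 (adjusted p = 0.0502) or 6 (adjusted p = 0.05). For g6975 the levels were 5.53, 0.884, 0.335 and 0.365 against 13.5, 10.5, 13.5 and 11.4 CPM, and virgin replicate 2 again lay between the groups. The log2 fold change was -2.78 (SE 0.87, edgeR adjusted p = 0.0289) and -4.56 without virgin replicate 2. The call of g6975 was lost without virgin replicate 3 or 6 or mated replicate 8, 10 or 11 (adjusted p = 0.0539 to 0.0759).

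The last lower members were closer to the threshold. For g23473 the levels were 1.60, 0.491, 0.413 and 0.991 against 2.75, 1.88, 2.50 and 2.23 CPM (log2 fold change -1.41, SE 0.43, edgeR adjusted p = 0.0261). For g27215 they were 1.94, 5.99, 7.25 and 3.08 against 10.9, 7.53, 14.0 and 11.4 CPM (log2 fold change -1.26, SE 0.41, edgeR adjusted p = 0.0339). Neither overlapped between the groups. The call of g23473 was lost without virgin replicate 3 or 6 or mated replicate 8, 10 or 11 (adjusted p = 0.0536 to 0.0663), and that of g27215 without virgin replicate 6 or mated replicate 8, 10 or 11 (adjusted p = 0.0585 to 0.0875).

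A further pair of members, g28544 and g22198, chosen after their values were seen, had the pattern of g6976 and g6975 without passing edgeR's test on all libraries. On the same libraries both passed with limma voom (adjusted p = 0.00627 and 0.00947) and with DESeq2 (adjusted p = 0.0168 and 0.0183). For g28544 the levels were 14.4, 1.67, 0.310 and 0.835 CPM in virgin and 19.6, 18.1, 30.6 and 25.0 CPM in mated libraries. The groups did not overlap, and the log2 fold change of -2.44 (SE 1.03, edgeR adjusted p = 0.0814) was -4.67 without virgin replicate 2 (adjusted p = 0.000268, with 0.000111 to 0.172 over the alternatives). For g22198 they were 4.72, 0.524, 0.464 and 0.548 against 5.75, 4.68, 9.39 and 4.75 CPM. Virgin replicate 2 lay within the mated range, and the log2 fold change of -1.97 (SE 0.79, edgeR adjusted p = 0.0699) was -3.59 without it (adjusted p = 0.000127, with 0.000127 to 0.149 over the alternatives).

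Many members were neighbours in the genome. Taking members on 1 scaffold of the Pcitri.v1 assembly with at most 5 gene models between neighbours and at least 3 members, there were 8 arrays with 68 members, and 71 members lay outside them. In arrays 43 of 68 members were higher and 0 lower, with a median log2 fold change of 1.47. Outside arrays 26 of 71 were higher and 6 lower, with a median of 0.82. Among all gene models tested, 26.4% were higher and 21.3% lower. The difference between these sets was not tested, and members of an array share a region and may share sequence. Counts come from uniquely mapped read pairs, so levels of near-identical copies are uncertain, as are those of overlapping and antisense genes, since no source used here says whether strand was used in counting.

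The largest array lay on scaffold PCITRI_00099 and held 38 members, from g22254 to g22307, in a span of 54 of the scaffold's 61 gene models. Of these, 24 were higher and 0 lower in virgin females, with log2 fold changes from 0.01 to 3.72 and a median of 1.57, and 17 were higher in all 17 fits. Their levels summed to 1125 to 1754 CPM in virgin and 580 to 755 CPM in mated libraries. The 16 other gene models in the span included 10 that were tested, of which 4 were higher and 3 lower. These are few beside shares of 26.4% higher and 21.3% lower among all gene models tested, and no difference from those shares was tested. Among these, the carboxylesterases g22272 and g22287, of the family of ester hydrolases, were higher with log2 fold changes of 2.66 (edgeR adjusted p = 0.0489) and 1.41 (edgeR adjusted p = 0.0038), as was the ABC transporter g22296 with 1.71 (edgeR adjusted p = 0.0388). The carboxylesterase g22288, directly beside g22287, was not called (log2 fold change 0.54, edgeR adjusted p = 0.47), although without mated replicate 8 it was 1.52 and passed (adjusted p = 0.00864, with 0.00864 to 0.734 over the alternatives). The last of the 4 higher ones, g22265, has no InterPro entry and few reads, with 149 counts over all libraries (log2 fold change 1.78, edgeR adjusted p = 0.00715). Only g22265 and g22287 among the 4 kept their calls whichever library was left out. Omitting virgin replicate 5 lowered g22272 to 1.58 and g22296 to 0.85, and omitting mated replicate 8 raised g22272 to 3.84. For g22272 the call held only when virgin replicate 2 or mated replicate 8 was the omitted library (adjusted p = 0.055 to 0.158 for the others), and for g22296 it failed when virgin replicate 5 or mated replicate 9, 10 or 11 was omitted (adjusted p = 0.0675 to 0.0985). The 3 lower ones, g22260, g22261 and g22262, have no InterPro entry and stand next to each other between P450 members, with log2 fold changes of -2.46, -1.36 and -1.87, of which the first was -3.13 without virgin replicate 2 and lost its call without mated replicate 11 (adjusted p = 0.0557).

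**Figure D4:**
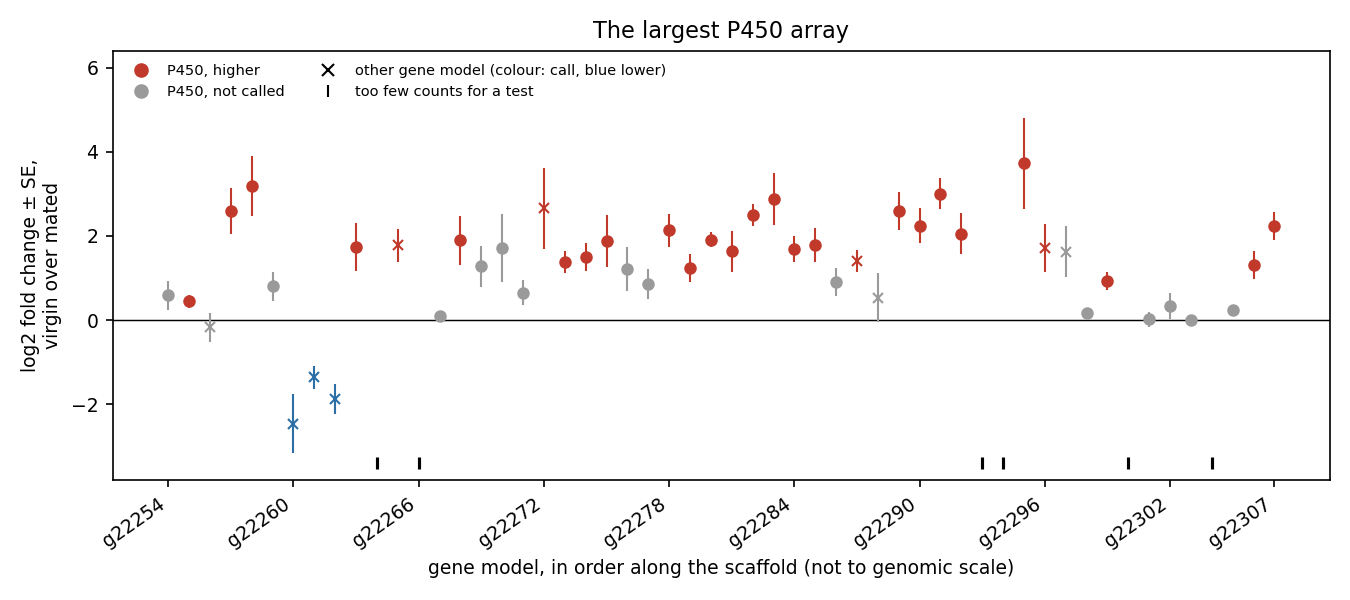
Log2 fold change of virgin over mated females with its standard error (y axis) for the gene models of the array on scaffold PCITRI_00099 in their order (x axis), circles for P450 members and crosses for other gene models, coloured by edgeR call. P450 members from g22278 to g22295 lie between 0.91 and 3.72, and those from g22298 to g22305 lie between 0.01 and 0.93.

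Change was uneven along this array, which is described here by stretches chosen after the values were seen. Among all gene models tested, 26.4% were higher and 21.3% lower, and no difference between stretches was tested. From g22278 to g22295, 13 of 14 members were higher with a median log2 fold change of 2.09, 10 of them in all 17 fits. This stretch holds g22280, g22282 and g22291, described above, and g22278, which had most reads among the 14, at 58.5, 65.9, 155 and 91.0 CPM in virgin and 29.6, 24.5, 11.8 and 18.6 CPM in mated libraries (log2 fold change 2.13, SE 0.38, edgeR adjusted p = 0.00342). It also holds g22283, whose log2 fold change of 2.88 (edgeR adjusted p = 0.00629) was 3.50 without mated replicate 9, and g22295, with few reads and the largest fold of the array, at 0.169, 4.42, 3.79 and 1.96 against 0.425, 0.195, 0 and 0.174 CPM. For g22295 virgin replicate 2 lay within the mated range. Its log2 fold change was 3.72 (SE 1.08, edgeR adjusted p = 0.0223), the call was lost without virgin replicate 3 or mated replicate 9 or 11 (adjusted p = 0.0551 to 0.0641) and with limma voom (adjusted p = 0.0798), and the value was 4.40 without mated replicate 8. From g22254 to g22277, 8 of 16 members were higher with a median of 1.33, 4 of them in all 17 fits, and the largest change there was that of g22258, at 3.99, 16.8, 32.9 and 17.5 against 3.2, 2.51, 0.541 and 1.62 CPM (log2 fold change 3.18, SE 0.71, edgeR adjusted p = 0.00778).

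Beyond g22295, from g22298 to g22305, 1 of 6 members was called, with a median log2 fold change of 0.20. So few members cannot be set apart from the 26.4% of all gene models tested that were higher. The 6 were not weakly expressed. Levels of g22303 were 27.1, 25.6, 22.3 and 21.5 CPM in virgin and 24.2, 24.7, 21.6 and 25.1 CPM in mated libraries, and those of g22301 were 86.6, 60.3, 73.2 and 48.2 against 67.6, 63.1, 72.5 and 61.7 CPM. The most abundant of the array, g22302, had 75.1, 144, 244 and 160 against 102, 148, 132 and 111 CPM. Virgin and mated libraries overlapped for all 3, and the log2 fold changes of g22301 and g22303 (0.02 and 0.01) changed sign with the scaling. For g22305 the groups did not overlap (34.7 to 43.9 against 27.2 to 34.1 CPM), but it was not called (log2 fold change 0.24, edgeR adjusted p = 0.131). The last members of the array, g22306 and g22307, were both higher in all 17 fits, the latter at 5.53, 8.94, 10.8 and 10.9 against 1.67, 2.85, 1.17 and 1.97 CPM (log2 fold change 2.24, SE 0.33, edgeR adjusted p = 0.00192).

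The array on scaffold PCITRI_00025 consisted of 7 adjacent members, g1260 to g1266, and all 7 were higher in virgin females. Levels of g1260 were 25.9, 89.8, 218 and 152 CPM in virgin and 11, 19.8, 10.4 and 7.13 CPM in mated libraries. The groups did not overlap although the highest virgin library had 8.42 times the level of the lowest, and the log2 fold change was 3.33 (SE 0.63, edgeR adjusted p = 0.00402). Levels of g1264 were steadier, at 122, 92.1, 95.7 and 154 against 43.0, 34.5, 18.4 and 22.9 CPM (log2 fold change 1.97, SE 0.29, edgeR adjusted p = 0.00193). For g1261 they were 45.1, 161, 272 and 203 against 68.5, 29.4, 16.8 and 14.9 CPM. Virgin replicate 2 was below mated replicate 8 there, and the log2 fold change of 2.39 (SE 0.65, edgeR adjusted p = 0.017) was 3.05 with mated replicate 8 left out, and the call was lost when mated replicate 10 was left out (adjusted p = 0.0508). The others had log2 fold changes of 2.39 (g1265), 1.37 (g1266), 0.90 (g1262) and 0.56 (g1263). Between them, g1260, g1263, g1264 and g1265 were higher in all 17 fits. The call of g1262 was lost without virgin replicate 3 or mated replicate 9, 10 or 11 (adjusted p = 0.0516 to 0.075), and that of g1266 without mated replicate 9, 10 or 11 (adjusted p = 0.0688 to 0.0835).

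On scaffold PCITRI_00016 all 4 members of an array (g913, g916, g917 and g918) were higher in all 17 fits, with log2 fold changes from 2.31 to 2.58. Levels of g916 were 8.93, 36.4, 43.2 and 39.5 CPM in virgin and 5.89, 7.09, 3.08 and 5.33 CPM in mated libraries, so that virgin replicate 2 stood near the mated libraries and the other virgin libraries far above (log2 fold change 2.58, SE 0.49, edgeR adjusted p = 0.00398). The same order was seen for g917, at 7.02, 22.7, 39.4 and 27.9 against 5.55, 6.75, 3.93 and 3.36 CPM. The 2 other tested gene models in that span were not called.

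The remaining arrays were smaller and mixed. On PCITRI_01368, g2677 and g2678 with their high level in virgin replicate 5 stood beside g2680, which was higher with a log2 fold change of 1.39 (edgeR adjusted p = 0.0183, lost without mated replicate 10 or 11 at 0.0573 and 0.0528), and g2679, which was not called (log2 fold change 1.12, edgeR adjusted p = 0.0806) and had 65.9 CPM in virgin replicate 5 against 15.1 to 21.8 CPM in the other virgin libraries. The log2 fold change of g2679 was 0.35 without virgin replicate 5 and 1.32 without virgin replicate 2, where it passed (edgeR adjusted p = 0.0341, with 0.0341 to 0.163 over the alternatives). In DESeq2 with all libraries g2679 passed as well (adjusted p = 0.0442). On PCITRI_01791, 3 of 4 members were higher, among them g5873 and g5874. On PCITRI_01709 and PCITRI_00027 it was 1 of 4 and 1 of 3, and on PCITRI_00785 none (0 of 4), with log2 fold changes from 0.00 to 0.45. Arrays this small cannot be set apart from the 26.4% of all gene models tested that were higher.

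Some members kept a nearly fixed ratio to each other over the 8 libraries. Likeness was measured as the SD of the log2 ratio of 2 members over the libraries (0.1 CPM added to each level), among the 61 members whose log2 CPM had an SD of at least 1, which made 1830 pairs. The most alike were g22289, in the largest array, and g18358, on another scaffold, with an SD of 0.154. Levels of g22289 were 23.8, 32.1, 32.5 and 36.2 CPM in virgin and 7.59, 7.60, 1.71 and 3.79 CPM in mated libraries, and those of g18358 were 28.8, 40.7, 43.3 and 50.0 against 9.99, 10.1, 3.02 and 5.45 CPM. Both were lowest in mated replicate 10. Next were the neighbours g917 and g918 (SD 0.164) and then g16614 and g20022 (SD 0.191), which lie on different scaffolds. The latter were at their highest in virgin replicate 5 and low in virgin replicate 2, with 4.78, 25.2, 115 and 22.4 against 25.3, 6.92, 4.64 and 3.74 CPM for g16614 and 2.3, 13, 64 and 12.9 against 13.4, 4.31, 2.73 and 1.48 CPM for g20022. Groups overlapped for both, and neither passed edgeR's test with all libraries (log2 fold changes 2.04 and 2.08, edgeR adjusted p = 0.114 and 0.119). With all libraries both passed in DESeq2 (adjusted p = 0.0389 and 0.042) and in limma voom with sample quality weights (adjusted p = 0.0156 and 0.0184). In limma voom without weights neither did (adjusted p = 0.201 and 0.221). When virgin replicate 2 was left out both passed, g16614 with 2.40 (edgeR adjusted p = 0.0368, with 0.0156 to 0.463 over the alternatives) and g20022 with 2.44 (edgeR adjusted p = 0.0378, with 0.0184 to 0.483). Leaving out virgin replicate 5 lowered both to 0.77, and leaving out mated replicate 8 raised both to about 3.0, where g16614 passed (edgeR adjusted p = 0.0439) and g20022 did not (0.0544). The pairs were chosen after their values were seen, all points share the same libraries, and whether a pair shares sequence was not tested.

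Many members differed between pools of 1 group, as counted here with 0.1 CPM added to each level. Virgin replicate 2 was at least 2-fold below the mean of the other virgin libraries for 51 members (36.7%, against 18.3% of all gene models tested), and mated replicate 10 was that far below the other mated libraries for 33 (23.7%, against 5.56%). At least 2-fold above the others of their group were 26 members in virgin replicate 5 (18.7%, against 5.32%) and 25 in mated replicate 8 (18.0%, against 3.69%). Of the 69 members called higher, virgin replicate 2 was below every other virgin library for 48, and for 33 it lay between the other virgin libraries and the mated ones. No such counts over all gene models called higher are given here, so they cannot be read as particular to the family. The virgin library with the highest level was replicate 5 for 53 members (38.1%, against 27.4% of all gene models tested) and replicate 6 for 41 (29.5%, against 19.2%). It was replicate 2 for 38 (27.3%, against 38.4%) and replicate 3 for 7 (5.04%, against 15%). These counts are descriptions, as members of an array do not vary independently.

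The widest range within virgin libraries belonged to g22196, with 208, 135, 0 and 95 counts in virgin replicates 2, 3, 5 and 6. In CPM it was 5.84, 4.42, 0 and 2.48 against 5.49, 2.58, 2.62 and 3.53 in mated libraries. The 0 of virgin replicate 5 allows a level of up to 0.0744 CPM there (3 counts, counting error only), so this pool lay well under the other 7. The groups were not different by the test (log2 fold change -0.16, SE 0.99, edgeR adjusted p = 0.904).

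Genes that supply P450 enzymes with electrons and haem were compared in the same fit. Of 21 such gene models, chosen by InterPro entry, 13 were higher in virgin females (61.9%, against 26.4% of all gene models tested) and 0 lower (against 21.3%). Their median log2 fold change was 0.64. The entries are broad and also cover proteins with no part in P450 reactions. Haem synthesis, which makes the prosthetic group, was higher for 5 of 5 listed gene models, at smaller folds than most called P450 members. They do not cover the whole pathway, since some of the entries searched, among them that of its first enzyme, matched no gene model. Ferrochelatase (g31012), which inserts the iron, had 21.1, 20.4, 26.7 and 22.8 CPM in virgin and 12.7, 13.6, 10.5 and 10.3 CPM in mated libraries, with no overlap and a log2 fold change of 0.95 (SE 0.15, edgeR adjusted p = 0.00223). Uroporphyrinogen III synthase (g15705), which closes the ring, had 6.54, 7.63, 6.76 and 5.95 against 3.60, 3.61, 3.02 and 2.87 CPM, again with no overlap and a log2 fold change of 1.04 (SE 0.17, edgeR adjusted p = 0.00246). The others were g23723 (coproporphyrinogen oxidase, 0.65), g31128 (delta-aminolevulinic acid dehydratase, 0.65) and g16955 (uroporphyrinogen decarboxylase, 0.39). The haem oxygenase g27613, of the enzymes that break haem down, was not called (log2 fold change 0.18, edgeR adjusted p = 0.349).

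All 4 gene models with a 2Fe-2S ferredoxin domain were higher, the fold of g9275 being the largest. Levels of g9275 were 16.5, 63.9, 63.1 and 71.3 CPM in virgin and 20.6, 24.0, 19.3 and 22 CPM in mated libraries. Virgin replicate 2 was below all mated libraries while the other virgin pools were far above (log2 fold change 1.32, SE 0.39, edgeR adjusted p = 0.0236). For g3927, by contrast, they were 75.5, 90.4, 83.7 and 78.3 against 48.4, 35.9, 40.3 and 34.3 CPM, with a narrow spread (log2 fold change 1.05, SE 0.13, edgeR adjusted p = 0.00131). Cytochrome b5 genes were higher for 3 of 5 (g882, g32850 and g32302, log2 fold changes of 1.04, 0.78 and 0.40). Diflavin reductases and related flavoproteins, the group to which P450 reductase belongs, were higher for 1 of 6. This was g18187, with a log2 fold change of 2.11 (SE 0.46, edgeR adjusted p = 0.00691) and 3.2, 7.66, 14.4 and 5.97 against 2.44, 1.71, 1.92 and 1.16 CPM. By edgeR with all libraries g6756, at 171, 204, 386 and 354 against 148, 241, 143 and 158 CPM, was not called (log2 fold change 0.69, edgeR adjusted p = 0.084). It passed with all libraries in limma voom with sample quality weights (adjusted p = 0.0336). In edgeR it passed when virgin replicate 2 (0.86, adjusted p = 0.0219) or mated replicate 9 (0.88, adjusted p = 0.0484) was left out, with 0.0219 to 0.216 over the alternatives. Which of the 6 is P450 reductase is not given in the tables. Calls that ended when 1 library was left out were those of g9275 (without virgin replicate 3, 5 or 6 or mated replicate 8, 10 or 11), g882 (without virgin replicate 5 or 6 or mated replicate 8, 10 or 11), g32302 (without any library but virgin replicates 2 and 3, and also with relative log expression or upper-quartile scaling, no filter or limma voom) and g16955 (without mated replicate 10 or 11), at edgeR adjusted p of 0.05 to 0.132 for the omitted libraries. With limma voom the call of g9275 was lost as well (adjusted p = 0.0734).

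**Figure D5:**
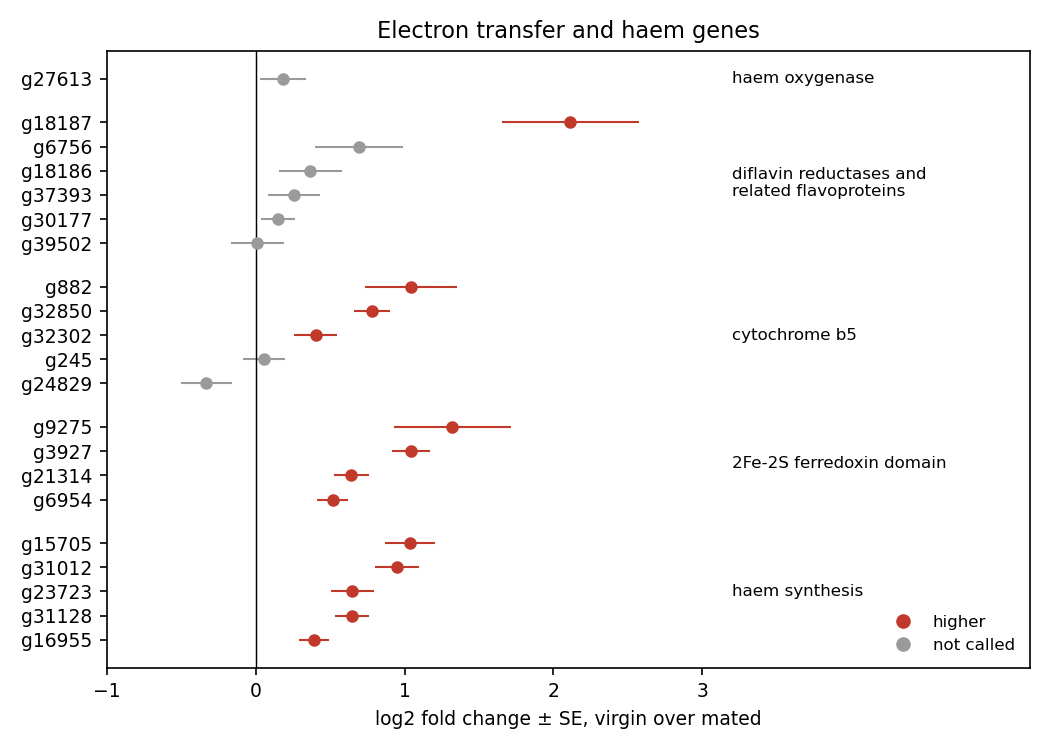
Log2 fold change of virgin over mated females with its standard error (x axis) for 21 gene models of electron transfer, haem synthesis and haem breakdown (y axis), coloured by edgeR call. The 5 haem synthesis and 4 ferredoxin gene models are all higher, and 1 of 6 flavoproteins is.

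Other families of detoxification enzymes were set beside the P450 members, with the difference between families not tested. Among all gene models tested, 26.4% were higher and 21.3% lower. Carboxylesterases were higher for 134 and lower for 13 of 206 (median log2 fold change 1.43), and glutathione S-transferases, which join glutathione to reactive compounds, for 13 and 1 of 20 (median 1.28). Flavin monooxygenases, another group of monooxygenases, were higher for 6 of 9 (median 1.39). UDP-glycosyltransferases, which add a sugar, were higher for 47 and lower for 10 of 101 (median 0.90), and sulfotransferases higher for 6 of 14 (median 0.62). ABC transporters, which export conjugates, were higher for 26 (27.4%, near the share of all gene models) and lower for 13 (13.7%) of 95. Their median of 0.13 was near that of all gene models. The P450 median of 1.21 lay below those of the carboxylesterases, flavin monooxygenases and glutathione S-transferases and above that of the UDP-glycosyltransferases.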

How the data were processed

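RNA-seq counts of 8 libraries were used. For the deposited counts the authors trimmed the reads and mapped them to Pcitri.v1 with CLC Genomics Workbench, where pairs with a unique position were counted for each gene model. In the submitters' processing notes limma 3.34.9, edgeR 3.20.9, R 3.4.2 and FastQC are named too. The authors also deposited log2 CPM values, which differed from log2 CPM computed here (prior count 2) by a median of 0.118 to 0.312 per library, and a table of their log2 fold changes and adjusted p-values, of which only the gene list and InterPro entries were used. No per-sample column was without a sample (0).

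Counts were tested in R 4.3.3 with edgeR 4.0.16 (filterByExpr, TMM, glmQLFit, glmQLFTest, condition as the only term), with Benjamini-Hochberg adjustment over 21179 gene models and a threshold of 0.05. SE is the absolute log2 fold change over the square root of F. The labels call the pools replicates of a group, and p-values measure the spread between these pools. The test was tried on simulated counts. Alternatives were other scaling factors, other filters, limma 3.58.1 voom with and without sample quality weights, DESeq2 1.42.0 and leaving out each library.

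Members, gene lists and the rule for named genes were chosen with earlier results of these data known. The rule names g22280 and g12544, the 10 members with most reads, the 8 largest changes each way without overlap and with mean log2 CPM not under 0, the 4 smallest p each way, all lower calls, members of the 3 largest arrays and the member with the widest range in virgin libraries. Other members (g2678, g2679, g2680, g28544, g22198, g18358, g16614, g20022, g22679 and g23519) were named after their values were seen. For the other genes, up to 4 called ones each way of each list with the smallest p could be named, and the flavoprotein g6756, the haem oxygenase and genes inside the largest array were added after their values were seen. Depth limits low members most, since 3 counts are worth 0.0596 to 0.101 CPM. None (0) of the members matched an entry of the RefSeq table used here, so no sequence or coordinate is given.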

Additional observations from a re-analysis of the deposited data

Results flagged for a closer look

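A library stood apart from the other 3 of its group for several members, by more than Dixon's 95% limit for groups of 4. For normally distributed values chance exceeds it in about 1 in 20 groups. Over all 139 members, 32 of 278 groups (11.5%) did so. The limit was applied to CPM without a log scale, and no share over all gene models is given, so 11.5% does not show an excess in this family. Virgin replicate 5 was far above the other virgin libraries for the neighbours g2677 (57.6 CPM, against 1.32 to 10.3), g2678 (126 CPM, against 1.10 to 16.0) and g2679 (65.9 CPM, against 15.1 to 21.8).

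Several of the members named here (g2678, g2679, g28544, g22198, g22679, g23519 and g16614) were named after their values were seen. The libraries are therefore not ranked by how many members they stood apart for. Virgin replicate 2 did so for members in both directions. It was above the other virgin libraries for g6976 (4.27 CPM, against 0.196 to 0.361), g6975 (5.53 CPM, against 0.335 to 0.884), g28544 (14.4 CPM, against 0.310 to 1.67), g22198 (4.72 CPM, against 0.464 to 0.548) and g22679 (9.52 CPM, against 3.37 to 3.77), and below them for g23519 (27.1 CPM, against 118 to 133). Among mated libraries, replicate 8 was above the others for g16614 (25.3 CPM, against 3.74 to 6.92) and g22679 (26.5 CPM, against 1.17 to 3.04), and replicate 10 was below them for g22282 (1.27 CPM, against 2.24 to 2.40).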

How the results depend on the processing

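Scaling, filters and tests moved the number of higher P450 calls between 65 (limma voom) and 91 (voom with sample quality weights), from 69, while the share of all gene models called higher moved between 24.7% and 34.0% with the same methods, from 26.4%. Leaving out 1 library gave 50 to 83 higher and 3 to 9 lower members, 9 to 14 higher and 0 to 1 lower electron transfer and haem genes, and 165 to 249 higher and 27 to 56 lower genes of the other detoxification families. Over all gene models tested the same omissions gave 19.5% to 31.4% higher and 15.8% to 30.6% lower. With sample quality weights, 32.5% of all gene models tested were lower instead of 21.3%. There 10 members were lower instead of 6, 1 electron transfer or haem gene instead of 0, and 62 genes of the other families instead of 37. Without virgin replicate 2 the last 2 of these counts were 1 and 56. With no gene model allowed between neighbours the largest array held 14 members instead of 38. Of 895 alternative values for 56 named members, 813 kept their direction and side of the threshold, 32 lost the call, 27 gained it and 23 turned sign. The latter were log2 fold changes of 4 members that were not called. When 1 library was left out, the values of g22196 ran from -0.65 without virgin replicate 2 to 0.24 without virgin replicate 5, with 0.12 without mated replicate 8. Those of g22679 ran from -1.21 without virgin replicate 2 to 1.34 without mated replicate 8, and they were 0.36 and 0.38 on all libraries for voom with and without quality weights. When 1 library was left out, the values of g22301 ran from -0.14 without virgin replicate 2 to 0.15 without virgin replicate 6. On all libraries its values below 0 were -0.0026 (relative log expression scaling and DESeq2), -0.065 (upper-quartile), -0.0084 (no filter), -0.014 (voom) and -0.17 (quality weights). Those of g22303 ran from -0.056 to 0.072 without the same libraries. On all libraries its values below 0 were -0.0067, -0.0068 (DESeq2), -0.065, -0.013 and -0.022 (quality weights) in that order. The cause was not tested. No paired analysis was possible because the groups share no replicate numbers. Scaling moved the median of all gene models by less than 0.1 on the log2 scale.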
